A study of Mus musculus with 9 samples.

Results

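The clustered histone genes were defined by name: every protein-coding gene of GENCODE M21 (mouse GRCm38) whose symbol began with Hist1h, Hist2h, Hist3h or Hist4h. The annotation held 67 such genes, of which 65 were among the 49315 gene IDs of the count table; Hist1h2bh and Hist1h2bm were not analysed here. They comprised 6 linker (H1), 18 H2A, 16 H2B, 12 H3 and 13 H4 genes. Counts were compared in 9 RNA-seq libraries from co-cultures of SB28, a green fluorescent mouse glioblastoma line of C57BL6 origin, with primary neonatal astrocytes of mito::mKate2 mice. These mice express, from the CAG promoter, the red fluorophore mKate2 fused to the COX8 mitochondrial localisation peptide, so an SB28 cell that gains mKate2 has taken up material of the astrocytes. After 2 days together in DMEM F12 with 2% FBS, 5% N2 and 20 ng/ml each of EGF and FGF, the cells were sorted into astrocytes, SB28 cells without mKate2 (mKate2-) and SB28 cells with it (mKate2+), with 3 libraries of each from 3 co-cultures. All SB28 cells, mKate2- cells included, had therefore been cultured together with astrocytes. The libraries held between 24454561 and 39287841 counts assigned to genes.

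Replication-dependent histone genes supply the histones that package newly made DNA. Their mRNAs are made in S phase and, unlike almost all other mRNAs, end in a short stem-loop in place of a poly(A) tail; the stem-loop-binding protein SLBP grips this structure for processing, translation and decay. Some of the same genes can also give longer, polyadenylated transcripts, which have been described in differentiated cells that no longer divide. Replacement histone genes lie outside the clusters, mostly contain introns, give polyadenylated mRNAs in most cases and are used through the whole cell cycle. The genes were compared class by class between astrocytes and the tumor cells.

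The genes lie in 4 clusters in GRCm38. Hist1 held 54 of the 67 genes over 2219 kb (chr13:21715763-23934851), Hist2 held 10 (chr3:96219865-96270132), Hist3 held 2 (chr11:58948920-58956830) and Hist4 held 1 (chr6:136801553-136804415). The exons of 62 of the 67 formed a single block without an intron. The histone stem-loop was found in the annotated transcripts of 44 of the 67 genes, against 4 of 21834 other protein-coding genes. All 44 lay in the 3′ untranslated region, between 21 and 58 bases after the stop codon (median 31). The commonest 16 letters, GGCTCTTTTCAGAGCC, occurred in 26 genes, and 10 H4 genes carried other letters in the stem, as Hist1h4i shows. The stem-loops of the members on which the results turn are shown in RNA sense (as DNA letters), with the 16 letters of the stem-loop in capitals and 5 flanking bases on each side:

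Hist1h1c (linker; chr13:23739507-23739532, + strand): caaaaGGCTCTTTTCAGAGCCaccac

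Hist3h2a (H2A; chr11:58955167-58955192, + strand): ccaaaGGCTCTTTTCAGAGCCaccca

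Hist1h2be (H2B; chr13:23585526-23585551, - strand): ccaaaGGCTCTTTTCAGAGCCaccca

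Hist2h3c2 (H3; chr3:96238480-96238505, - strand): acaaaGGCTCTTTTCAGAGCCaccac

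Hist1h3c (H3; chr13:23745042-23745067, - strand): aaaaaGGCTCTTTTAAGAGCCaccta

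Hist1h4i (H4; chr13:22040961-22040986, - strand): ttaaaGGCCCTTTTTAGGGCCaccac

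Hist1h2ao (H2A; chr13:21810893-21810918, + strand): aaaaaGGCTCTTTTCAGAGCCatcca

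The first 4 were called lower in the SB28 cells than in astrocytes and the last 3 were not. Hist1h2be and Hist2h3c2 had passed the filter on low counts, given further on, only through the astrocyte libraries, so their calls support no direction. Hist1h2ao did not pass that filter and could not be called. The element stood in Hist1h1c and Hist3h2a and also in Hist1h4i, which was tested and not called. Annotated transcripts went on past it to different lengths: by 840 bases in Hist1h1c, 1643 in Hist3h2a, 1861 in Hist1h2be, 377 in Hist2h3c2, 330 in Hist1h4i, 74 in Hist1h3c and 31 in Hist1h2ao. In total 22 genes had at least 100 annotated bases after the stem-loop, 22 ended nearer to it and 23 had no stem-loop in the annotation, many of them annotated over the coding sequence alone. A poly(A) signal (AATAAA or ATTAAA) lay in the last 50 bases of 17 of the 67 genes (25.4%), against 78.0% of the other protein-coding genes.

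Upstream sequence was available from RefSeq (GRCm38.p6) for 62 members, in a window from 250 bases before to 50 after the start. On either strand, TATAAA was found for 56.5% of these members against 13.6% of all 32851 windows, and CCAAT for 85.5% against 37.4%. Members were counted by gene, with the motif in any window of the gene, and the background by window. The linker genes shared 1 more motif, AAACACA, the H1 box, in 5 of 6 genes against 7.18% of all windows and 4 of 56 core genes. The 250 bases before the starts of Hist1h1c and Hist1h1b are shown because these 2 linker genes had unlike levels; capitals mark the H1 box and, on either strand, the other 2 motifs:

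Hist1h1c (chr13:23738557-23738806, + strand): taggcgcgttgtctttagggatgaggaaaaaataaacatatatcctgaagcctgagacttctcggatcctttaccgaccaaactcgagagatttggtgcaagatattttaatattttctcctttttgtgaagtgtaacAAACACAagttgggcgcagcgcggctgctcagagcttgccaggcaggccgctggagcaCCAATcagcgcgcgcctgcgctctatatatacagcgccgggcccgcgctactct

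Hist1h1b (chr13:21780626-21780875, - strand): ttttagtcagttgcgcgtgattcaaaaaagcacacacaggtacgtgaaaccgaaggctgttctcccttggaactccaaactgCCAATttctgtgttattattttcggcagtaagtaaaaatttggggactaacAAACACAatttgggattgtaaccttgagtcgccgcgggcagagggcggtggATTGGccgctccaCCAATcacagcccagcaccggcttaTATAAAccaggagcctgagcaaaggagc

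In these windows AAACACA began 112 bases before the start of Hist1h1c and 117 bases before that of Hist1h1b. The nearest CCAAT began 54 and 53 bases before the start. TATAAA was found 28 bases before the start of Hist1h1b, and these 6 letters were not in the Hist1h1c window.

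Summed over the 65 genes, astrocytes had the higher level. In counts per 1000000 assigned counts (CPM) the sums were 303, 297 and 304 in the astrocyte libraries, 53.8, 39.5 and 29.4 in mKate2- cells, and 27.6, 52.7 and 44.8 in mKate2+ cells. The groups of astrocyte and SB28 libraries did not overlap, and the astrocyte mean was 7.37 times that of mKate2- cells and 7.23 times that of mKate2+ cells. In bulk libraries such as these, fewer cells of a type and less RNA per cell cannot be told apart. Most of the sum came from a few genes: Hist1h1c alone gave 63.4% ± 1.80 (SD, n = 3) of the members' counts in astrocytes and Hist1h2bc a further 18.7% ± 1.52. In mKate2- and mKate2+ cells Hist1h1c was also the leading member, with 14.1% ± 6.40 and 12.1% ± 0.42.

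The difference was uneven across the classes. H1 genes summed to 197 ± 8.0 CPM (SD, n = 3) in astrocytes, 10.1 ± 2.5 in mKate2- cells and 8.95 ± 3.61 in mKate2+ cells. H2B genes summed to 75.8 ± 5.24, 10.5 ± 1.91 and 9.95 ± 2.79 CPM. In both of these classes every astrocyte library lay above every SB28 library. H2A genes summed to 12.6 ± 0.95, 7.07 ± 2.05 and 8.09 ± 1.77 CPM, also without overlap. H3 genes summed to 6.50 ± 0.61, 4.68 ± 3.07 and 5.03 ± 1.63 CPM, and H4 genes to 9.98 ± 1.69, 8.57 ± 2.81 and 9.69 ± 3.41 CPM. In H3 and H4 the groups overlapped, and the differences between their means were smaller than the SD of at least 1 group.

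**Figure D1:**
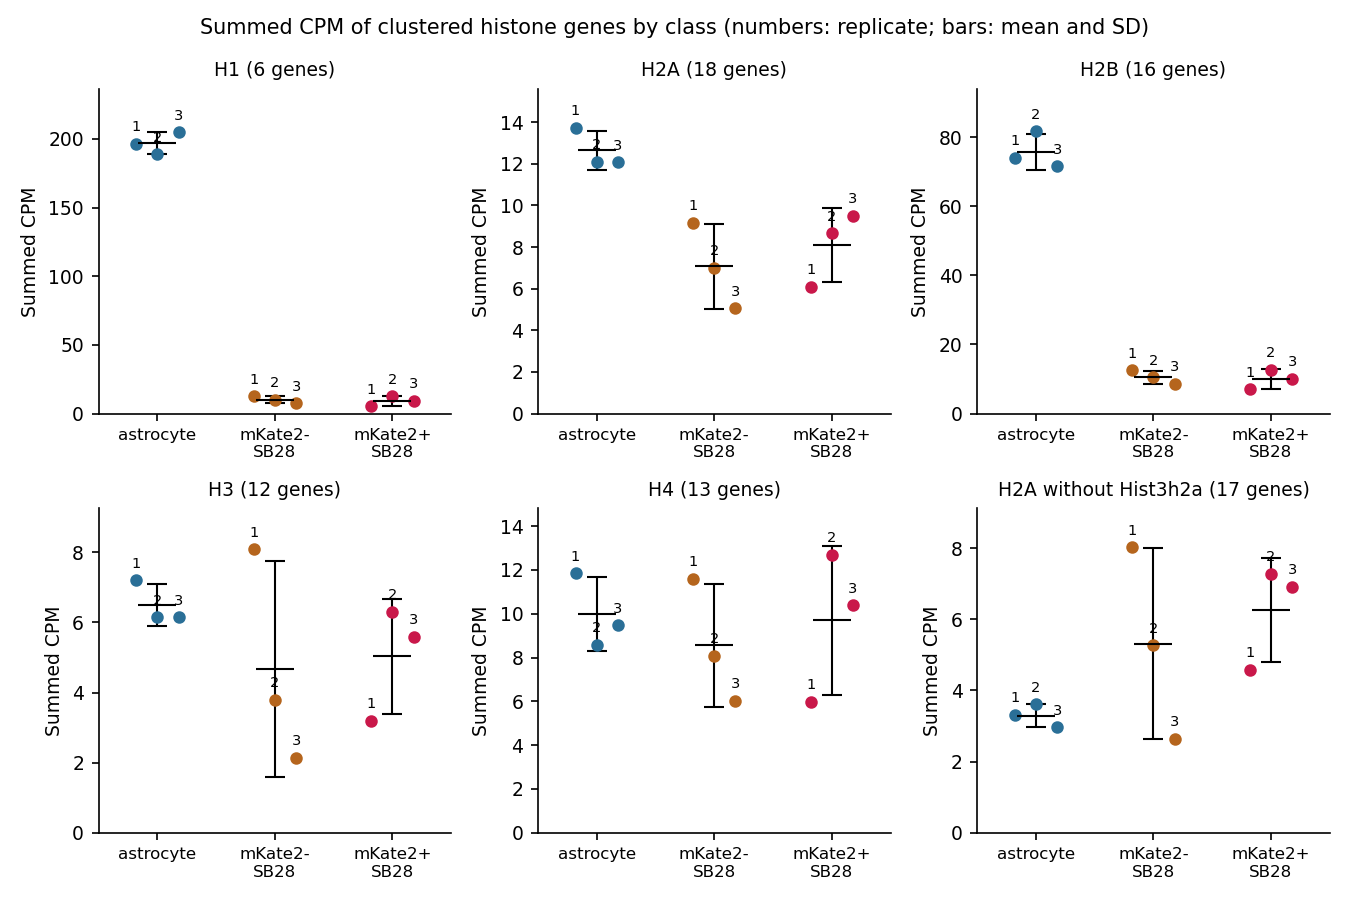
Summed CPM of the clustered histone genes by class in each library, with H2A shown again without Hist3h2a. Points are libraries with their replicate number, horizontal marks are means and bars are SD over 3 libraries; each axis starts at 0. The H1, H2B and H2A panels show astrocytes above all SB28 libraries, and the last panel shows the mean of 17 H2A genes higher in SB28 cells.

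The higher astrocyte sums came from 6 of the 65 genes, described by class further on. Without these 6, the members summed to 26.6 ± 1.75 CPM in astrocytes, 26.5 ± 14.2 in mKate2- cells and 27.5 ± 9.65 in mKate2+ cells (SD, n = 3). The 6 were 91.2% of the members' mean CPM in astrocytes, 35.1% in mKate2- cells and 34.2% in mKate2+ cells. They were selected by their tests against astrocytes, so this split describes the libraries and is no further test.

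Among the 65 genes, 55 had at least 10 counts over the 9 libraries. Of these 55, the means of both SB28 groups lay above the astrocyte mean in 24 genes and below it in 23, with 8 mixed. All 6 SB28 libraries lay below all 3 astrocyte libraries in 10 genes, against 29.0% of the 20667 genes of the table with as many counts. They lay above them in 3 genes, against 19.1%. The remaining 42 overlapped. The 24 genes that were higher on average in both SB28 groups included 11 of the 15 H2A genes with as many counts, 5 of 10 H3, 5 of 13 H4, 2 of 12 H2B and 1 of 5 H1. The other 10 genes had fewer than 10 counts, and 7 of them (Hist1h2ba, Hist1h2bq, Hist2h2aa1, Hist2h2aa2, Hist2h2bb, Hist2h3b and Hist2h3c1) had 0 counts in every library. All of these except Hist1h2ba had no 150-base window that was unique among the annotated transcripts, so a count of 0 says little of their level.

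**Figure D2:**
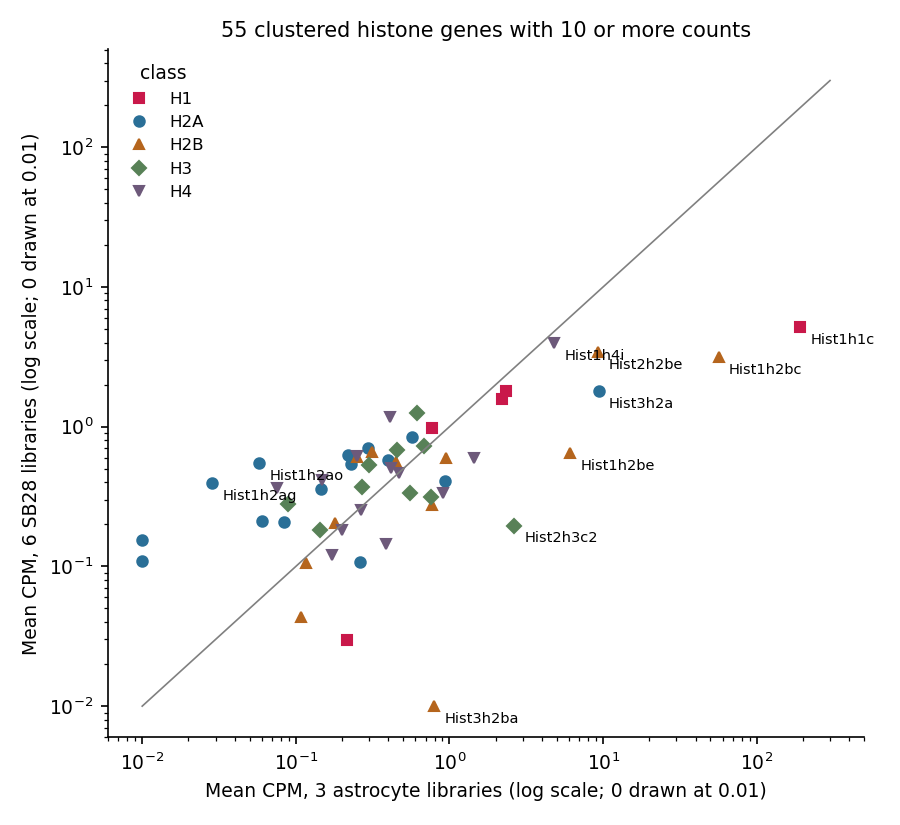
Mean CPM of the 55 members with at least 10 counts, in 3 astrocyte libraries (x axis) against 6 SB28 libraries (y axis), both on log scales with 0 drawn at 0.01; symbols give the class and the line marks equal means. The 6 lower genes from Hist2h3c2 to Hist1h1c lie far to the right of the line, and most H2A genes lie to its left at levels below 1 CPM.

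For testing, genes had to exceed 1 CPM in at least 2 of the 6 libraries compared, which few members did. In mKate2- cells against astrocytes 13 members were tested by edgeR's quasi-likelihood test, and 6 passed an adjusted P below 0.05 with an absolute log2 fold change above 1. All 6 were lower in the tumor cells; of all 13356 genes tested, 22.4% were lower and 11.5% higher by the same rule. In mKate2+ cells against astrocytes 14 members were tested, with 6 lower and 1 higher, against 22.8% and 12.2% of 13342 genes. The same 6 genes were lower in both comparisons, which share the astrocyte libraries. Some members passed the filter only through the group in which they were high: Hist1h2be, Hist2h3c2, Hist1h2bg and Hist1h4h exceeded 1 CPM in no SB28 library and Hist1h3c and Hist1h4d in no astrocyte library, so the counts of members say nothing of the 50 that passed in no comparison. None of these 50 exceeded 1.96 CPM in any library.

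**Figure D3:**
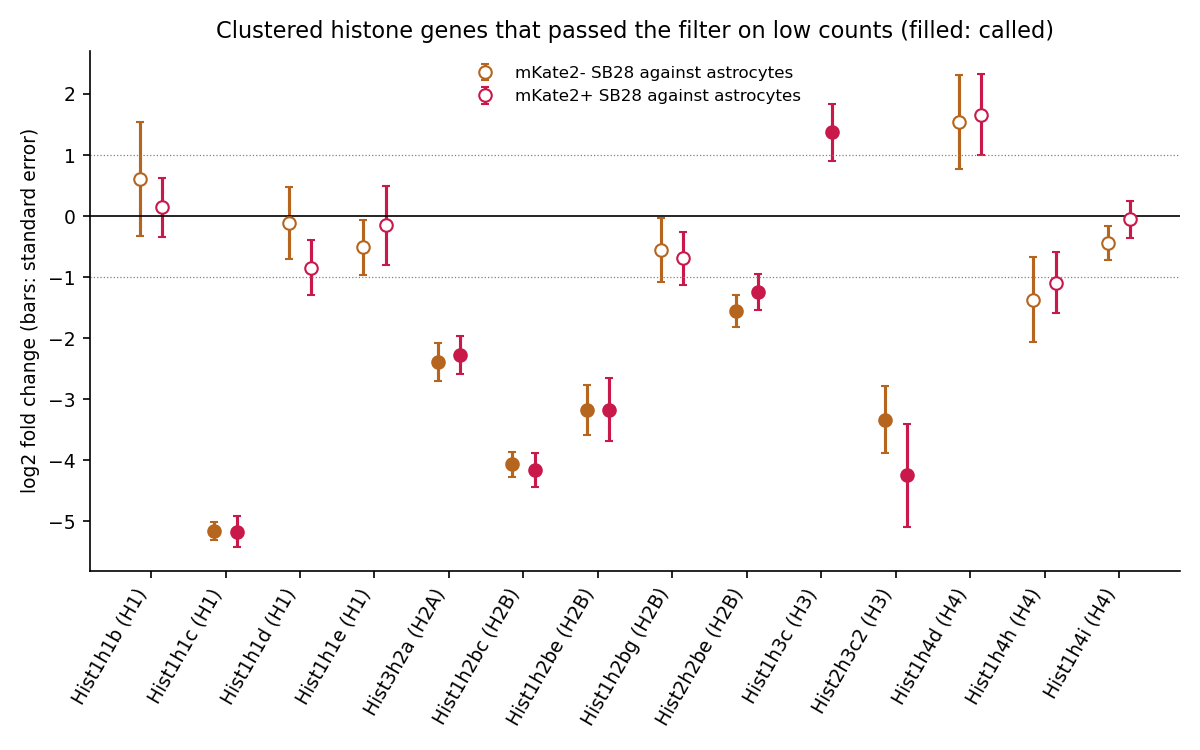
Log2 fold changes of the members that passed the filter on low counts, mKate2- and mKate2+ SB28 cells against astrocytes, ordered by class, with standard errors as bars; filled symbols passed the test and dotted lines mark the threshold of 1. Hist1h1c has the largest change in both comparisons, at -5.17 in each, and of the 6 lower genes Hist2h3c2 has the values farthest apart, at -3.34 and -4.25.

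Among the linker histones, which bind the DNA entering and leaving the nucleosome, Hist1h1c (encoding H1.2, chr13:23738808-23740367, + strand) was the gene with the highest level of all members. It stood at 192, 183 and 199 CPM in astrocytes, 4.71, 4.88 and 6.23 in mKate2- cells and 3.47, 6.24 and 5.33 in mKate2+ cells. The 3 astrocyte libraries lay far above all 6 SB28 libraries, which were close to each other. The log2 fold change was -5.17 (SE 0.15, adjusted P = 2.08e-06) in mKate2- cells and -5.17 (SE 0.25, adjusted P = 8.75e-06) in mKate2+ cells, 35.9-fold and 36.0-fold lower. Its counts could be placed without doubt as far as the annotation goes, since all its 150-base windows were unique among the annotated transcripts and no exon of another gene overlapped it.

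The other linker genes were low everywhere. Hist1h1e, encoding H1.4, had 2.17, 2.11 and 2.73 CPM in astrocytes, 2.24, 1.95 and 0.67 in mKate2- cells and 0.58, 3.92 and 1.35 in mKate2+ cells. Hist1h1d, encoding H1.3, had 1.88, 2.63 and 2.08 CPM in astrocytes, 3.60, 1.89 and 0.54 in mKate2- cells and 0.53, 1.40 and 1.52 in mKate2+ cells. Hist1h1b, encoding H1.5, had 0.49, 0.61 and 1.20 CPM in astrocytes, 1.99, 1.48 and 0.03 in mKate2- cells and 0.53, 0.87 and 1.02 in mKate2+ cells. Their groups overlapped, and adjusted P was 0.352, 0.878 and 0.592 in mKate2- cells and 0.850, 0.139 and 0.814 in mKate2+ cells. Exons of Hist1h1e and Hist1h2be overlap on the same strand, so reads there could not be given to either. Hist1h1a, encoding H1.1, reached 0.33 CPM at most and lay lower in all SB28 libraries. Hist1h1t, the testis-specific linker gene, had 5 counts in all, from astrocyte library 3.

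Per kilobase of exon, Hist1h1c stood at 123 ± 4.86 CPM in astrocytes (SD, n = 3), and the replacement linker genes H1f0 and H1fx at 62.8 ± 4.16 and 29.1 ± 6.32. These genes can differ in how their mRNAs end, and whether the libraries were poly(A)-selected is not given in the sources used here, so the values are read between groups and not as an order of the genes. In mKate2- cells they were 3.38 ± 0.54 for Hist1h1c, 55.4 ± 4.29 for H1f0 and 29.0 ± 1.11 for H1fx. In mKate2+ cells the values were 3.21 ± 0.90, 59 ± 7.09 and 37.9 ± 15.5 CPM per kilobase. As a share of the linker genes' summed CPM per kilobase, Hist1h1c gave 53.9%, 57.1% and 58.3% in the astrocyte libraries and between 2.54% and 4.34% in the 6 SB28 libraries. The share adds up genes whose mRNAs can end differently, so it too is read only between groups and not as the part of Hist1h1c among linker mRNAs. H1f0 and H1fx did not pass the test in either comparison, with log2 fold changes of -0.17 (SE 0.11) and 0.00 (SE 0.18) in mKate2- cells, and of -0.01 (SE 0.14) and 0.47 (SE 0.32) in mKate2+ cells. Hist1h1b, Hist1h1e and Hist1h1d had at most 1.57 CPM per kilobase in any group and none of them was called higher in the tumor cells.

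**Figure D4:**
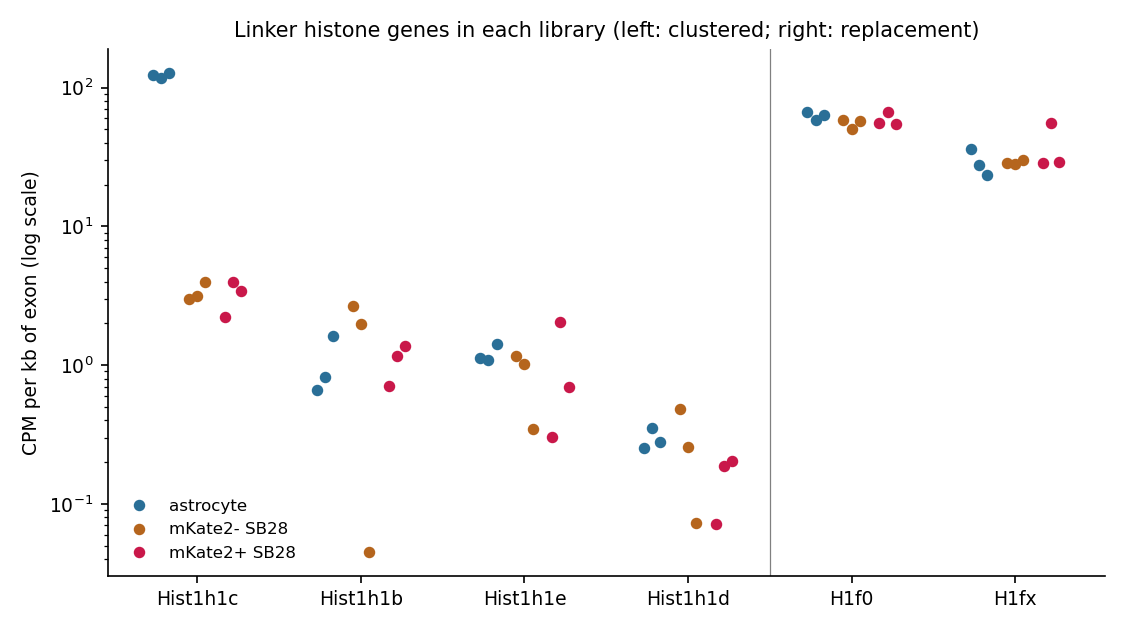
CPM per kilobase of exon (log scale) of 4 clustered linker genes and of the replacement linker genes H1f0 and H1fx; each point is 1 library. Hist1h1c is separated by more than 10-fold between astrocyte and SB28 libraries, and H1f0 and H1fx overlap between the groups.

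Among H2B genes, Hist1h2bc (chr13:23684199-23692908, + strand) was the second most abundant member in astrocytes. It had 57.8, 59.7 and 52.0 CPM in astrocytes, 2.57, 3.15 and 4.26 in mKate2- cells and 2.22, 4.12 and 2.55 in mKate2+ cells. No SB28 library came near the astrocyte libraries, with log2 fold changes of -4.07 (SE 0.21, adjusted P = 8.48e-06) and -4.16 (SE 0.28, adjusted P = 2.80e-05). Its annotated transcript has 2 exon blocks and no stem-loop, and 82.6% of its 150-base windows were unique. The H2A gene Hist1h2ac starts 250 bases away on the opposite strand, a head-to-head pairing common in histone clusters, and had 0.98, 1.04 and 0.80 CPM in astrocytes, 0.63, 0.20 and 0.23 in mKate2- cells and 0.39, 0.51 and 0.50 in mKate2+ cells. It too lay lower in all SB28 libraries than in all astrocyte libraries. Exons of Gm24991 overlap Hist1h2ac on the same strand and those of Gm44350 on the opposite strand, so some of its reads could be left uncounted. Hist1h2ac did not pass the filter and was named after its values were seen. With no filter it was called in neither comparison (-1.37, adjusted P = 0.104, and -0.87, adjusted P = 0.258), and with the filter of at least 10 counts in every library it was called lower in mKate2+ cells and could not be tested in mKate2- cells.

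Both Hist2h2be and Hist1h2be were also called lower in the tumor cells. Hist2h2be (chr3:96221119-96223738, + strand) had 6.95, 12.2 and 8.68 CPM in astrocytes, 3.05, 3.43 and 2.85 in mKate2- cells and 2.83, 4.02 and 4.21 in mKate2+ cells. Its change was the smallest of the 6, at -1.56 (SE 0.26, adjusted P = 0.00129) and -1.25 (SE 0.29, adjusted P = 0.00784), and its groups did not overlap. With the gene length trend removed the change in mKate2+ cells was -0.79, under the fold threshold. Hist1h2be (chr13:23583670-23621124, - strand) had 5.40, 6.33 and 6.55 CPM in astrocytes, 0.81, 0.86 and 0.30 in mKate2- cells and 0.22, 0.97 and 0.70 in mKate2+ cells. Its change was -3.18 (SE 0.41, adjusted P = 0.000358) and -3.17 (SE 0.51, adjusted P = 0.00136). Hist1h2be had passed the filter only through the astrocyte libraries, so its calls support no direction. Without these 3 H2B genes the other 13 summed to 3.88, 3.45 and 4.44 CPM in astrocytes, 6.03, 3.04 and 1.24 in mKate2- cells and 1.80, 3.54 and 2.66 in mKate2+ cells, and the groups overlapped. Hist1h2bg, the only other H2B gene tested, had log2 fold changes of -0.56 (SE 0.53, adjusted P = 0.388) and -0.69 (SE 0.43, adjusted P = 0.200).

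Hist3h2ba, an H2B gene of the Hist3 cluster, was counted only in astrocytes. It had 0.33, 0.67 and 1.39 CPM there and 0 counts in each of the 6 SB28 libraries, which hold 202433338 counts together. With 3 counts over these libraries taken as an approximate upper limit for a count of 0, the astrocyte mean of 0.798 CPM was 53.9-fold higher. This approximate lower bound considers counting error in the SB28 libraries alone and not the spread of the astrocyte libraries. Without astrocyte library 3, the highest, the bound was 33.7-fold. It did not pass the filter and was named after its values were seen. With no filter on low counts it passed the test in both comparisons (adjusted P = 0.000199 and 0.000357), when 15.3% and 15.2% of all genes were lower.

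Among H2A genes, Hist3h2a was the only member that passed the filter on low counts. Hist3h2a (chr11:58954685-58956830, + strand), 5151 bases from Hist3h2ba in the same cluster, had 10.4, 8.50 and 9.11 CPM in astrocytes, 1.14, 1.73 and 2.41 in mKate2- cells and 1.53, 1.37 and 2.60 in mKate2+ cells. It fell by 2.39 (SE 0.31, adjusted P = 0.000390) in mKate2- cells and fell by 2.28 (SE 0.31, adjusted P = 0.000559) on the log2 scale, without overlap of the groups. Exons of Trim17 overlap it on the same strand and those of Gm44313 on the opposite strand, and 72.0% of its 150-base windows were unique. In the annotation every H2A member is overlapped by an exon of another gene on the opposite strand. If strand was not used in counting, reads there could be left uncounted. Hist3h2a was 73.9% ± 3.17 of the H2A counts in astrocytes and 28.3% ± 17.9 and 22.8% ± 6.07 in the SB28 groups.

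The other 17 H2A genes summed to 3.31, 3.61 and 2.96 CPM in astrocytes, 8.02, 5.27 and 2.65 in mKate2- cells and 4.58, 7.28 and 6.91 in mKate2+ cells. Their means were thus higher in the tumor cells, 1.61 and 1.90 times that of astrocytes, with mKate2- library 3 lying below all astrocyte libraries. None of them passed the filter. Hist1h2ae, which ranked after Hist3h2a among H2A genes by the mean over all 9 libraries but below Hist1h2ac in astrocytes, had 0.65, 0.43 and 0.63 CPM in astrocytes, 0.99, 0.78 and 0.67 in mKate2- cells and 0.89, 0.61 and 1.08 in mKate2+ cells, and overlapped. The 3 members that were higher in all SB28 libraries than in all astrocyte libraries, named after their values were seen, were all H2A genes of Hist1: Hist1h2ag, Hist1h2ao and Hist1h2ap. Hist1h2ao had 0.08, 0.09 and 0 CPM in astrocytes, 0.55, 0.42 and 0.47 in mKate2- cells and 0.50, 0.61 and 0.73 in mKate2+ cells. With no filter on low counts Hist1h2ao passed in both comparisons (adjusted P = 0.0184 and 0.00655), as did Hist1h2ag (0.0165 and 0.0288), and Hist1h2ap passed in mKate2+ cells only (0.129 and 0.0499); by that rule 6.56% and 7.06% of all genes were higher. Only 8.46%, 34.5% and 9.01% of the 150-base windows of Hist1h2ao, Hist1h2ag and Hist1h2ap were unique, so reads of these near-identical genes could be split or left uncounted.

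Among H3 genes, 2 were called, in opposite directions. Both had passed the filter only through the group in which they were high, so their calls support no direction. Hist2h3c2 (chr3:96238108-96239127, - strand) had 3.27, 2.66 and 1.96 CPM in astrocytes, 0.29, 0.08 and 0.40 in mKate2- cells and 0.31, 0 and 0.09 in mKate2+ cells. It fell by 3.34 (SE 0.55, adjusted P = 0.00118) in mKate2- cells and fell by 4.25 (SE 0.84, adjusted P = 0.00348) in mKate2+ cells. The mKate2+ value rests on few counts and was -5.78 without mKate2+ library 1 and -3.67 without mKate2+ library 2. It shares sequence with Hist2h3c1, which had no counts, and 40.6% of its windows were unique. Hist1h3c (chr13:23744973-23745602, - strand), whose gene ends 4605 bases from Hist1h1c, had 0.82, 0.40 and 0.63 CPM in astrocytes, 1.69, 0.81 and 0.50 in mKate2- cells and 1.11, 2.16 and 1.20 in mKate2+ cells. It was the only member called higher, in mKate2+ cells (log2 fold change 1.38, SE 0.47, adjusted P = 0.0356). The call was lost with the replicate number as a block (1.33, adjusted P = 0.0800), with no filter on low counts (1.43, adjusted P = 0.0549) and without astrocyte library 2 or 3 or mKate2+ library 2 or 3 (0.96 to 1.53). In mKate2- cells the gene did not pass the filter, and with no filter it had 0.76 (adjusted P = 0.369).

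H4 genes, which nearly all encode the same protein, had no member called in the comparisons with astrocytes. Hist1h4i (chr13:22040636-22041362, - strand) was the leading H4 gene in every group, with 6.01, 4.59 and 3.87 CPM in astrocytes, 3.02, 3.43 and 4.12 in mKate2- cells and 3.41, 5.32 and 4.42 in mKate2+ cells. The groups overlapped (adjusted P = 0.197 and 0.882). Hist1h4d had log2 fold changes of 1.54 (SE 0.77, adjusted P = 0.114) and 1.66 (SE 0.66, adjusted P = 0.0618). Hist1h4h had -1.37 (SE 0.69, adjusted P = 0.120) and -1.09 (SE 0.50, adjusted P = 0.0950), and its SB28 libraries all lay below the astrocyte libraries. Both had passed the filter only through the group in which they were high, so the calls that follow support no direction. With the replicate number as a block Hist1h4h was lower in mKate2- cells (-1.55, adjusted P = 0.0396), and with the gene length trend removed Hist1h4d was higher in both (1.92 and 1.83, adjusted P = 0.0442 and 0.0233). Hist1h4d was also higher in mKate2+ cells without astrocyte library 1 (2.35, adjusted P = 0.0244).

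The annotated 3′ ends of the members were then set beside these levels. Of the 6 genes lower in tumor cells, 4 (Hist1h1c, Hist3h2a, Hist1h2be and Hist2h2be) were among the 17 members with a poly(A) signal in the last 50 bases, and 4 (Hist1h1c, Hist3h2a, Hist1h2be and Hist2h3c2) were among those with at least 100 bases after the stem-loop. Hist1h2bc and Hist2h2be had no annotated stem-loop. Hist1h2be and Hist2h3c2 had passed the filter only through the astrocyte libraries, so these counts of 4 support no link to either feature. Of the members with a poly(A) signal 6 had passed the filter in some comparison, of those with at least 100 bases after the stem-loop 10, and of the 21 in the table whose transcripts end near it 2, so few of the last could be called and their 0 of the 6 says little. These 21 summed to 7.57, 5.23 and 7.26 CPM in astrocytes, 12.9, 7.91 and 3.18 in mKate2- cells and 5.41, 10.7 and 9.04 in mKate2+ cells, and the groups overlapped. The 17 with a poly(A) signal summed to 225 ± 6.25, 16.9 ± 0.34 and 18.1 ± 4.2 CPM. The 48 without one summed to 76.9 ± 3.24, 24.1 ± 12.4 and 23.6 ± 8.96 CPM, also higher in every astrocyte library, and most of their astrocyte sum was Hist1h2bc. With Hist1h2bc set aside after its values were seen, the other 47 summed to 20.4 ± 1.1, 20.7 ± 13.2 and 20.7 ± 8.05 CPM (SD, n = 3). Hist1h1c, with a mean of 191 CPM in astrocytes, made up most of the sum of the 17 and was left in it. The sums of the 47 and of the 17 are therefore not to be set against each other. The sources used here do not give whether the libraries were made from poly(A)-selected RNA, so the levels of mRNAs that end in the stem-loop cannot be set against those of polyadenylated mRNAs, here or between members and replacement genes.

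Between mKate2+ and mKate2- SB28 cells no member was called. Of 11 members tested, 0 passed an adjusted P below 0.05 by edgeR or DESeq2, and 0 passed an unadjusted P below 0.05. Of all 11854 genes tested, 0 passed the adjusted and 2.03% the unadjusted threshold. The largest differences by P were Hist1h4i (log2 fold change 0.38, SE 0.24, adjusted P = 0.923), Hist2h2be (0.30, SE 0.22) and Hist1h3c (0.66, SE 0.49) among the higher genes. Among the lower genes they were Hist1h1d (-0.74, SE 0.65), Hist1h1b (-0.48, SE 0.82) and Hist1h2bc (-0.10, SE 0.32). For Hist1h1c the difference was -0.01 (SE 0.26). The summed CPM of the 65 members differed by 0.03 on the log2 scale, whereas libraries within each group spanned from 29.4 to 53.8 and from 27.6 to 52.7 CPM.

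This spread within the SB28 groups ran through the low members of all classes. The 59 members outside the 6 lower genes summed to 41.3, 25.4 and 13 CPM in mKate2- libraries 1 to 3 and to 17, 36.0 and 29.3 in mKate2+ libraries 1 to 3, against 27.8, 24.6 and 27.4 in astrocytes. mKate2- library 3 and mKate2+ library 1 were thus the lowest, and mKate2- library 1 and mKate2+ library 2 the highest. A list of 12 other RNAs without a poly(A) tail, led by the RNase P RNA Rpph1, summed in the same order of libraries to 24.1, 22.7 and 5.36 CPM, to 9.26, 6.21 and 23.6 CPM, and to 29.5, 7.49 and 23.4 CPM in astrocytes. Of its 12 genes 3 passed the filter and 0 were called against astrocytes (Rmrp 1.28 and 1.03, Rpph1 -0.81 and -1.09, Rn7sk -0.35 and -0.88 on the log2 scale). The list was also low in mKate2- library 3 and mKate2+ library 1, but low too in mKate2+ library 2 and astrocyte library 2. mKate2+ library 2 stood apart in another way: among the SB28 libraries, genes under 1000 bases deviated there by a median log2 of 0.49 from the mean of the 6 SB28 libraries, and genes over 5000 bases by -0.13. The part of these features in the histone values was not tested. Without mKate2+ library 2 the same 6 members were lower than in astrocytes.

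**Figure D5:**
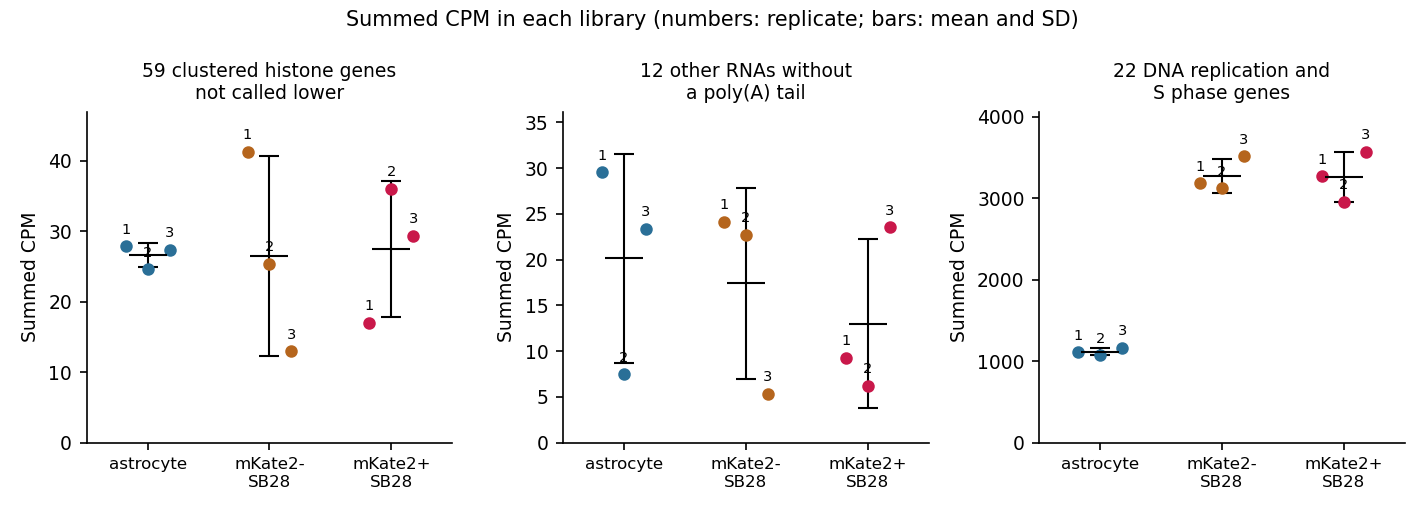
Summed CPM in each library of the 59 clustered histone genes not called lower (left), of 12 other RNAs without a poly(A) tail (middle) and of 22 DNA replication and S phase genes (right). Points are libraries with their replicate number, horizontal marks are means and bars are SD over 3 libraries; each axis starts at 0. The left panel varies from 13 to 41.3 CPM within mKate2- cells, and the right panel separates astrocytes from all SB28 libraries.

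Genes of DNA replication were higher in the SB28 cells. Of 22 DNA replication and S phase genes, all tested, 21 were higher than in astrocytes in mKate2- and in mKate2+ cells and 0 lower; E2f1 did not pass the fold threshold in either (log2 fold changes 0.48 and 0.59). Their median log2 fold changes were 1.68 and 1.75, beside -0.04 and -0.02 for all genes. The list summed to 1110, 1076 and 1164 CPM in astrocytes, 3180, 3122 and 3517 in mKate2- cells and 3269, 2957 and 3567 in mKate2+ cells, a ratio of 2.93 and 2.92. The libraries with the lowest histone sums, mKate2- library 3 and mKate2+ library 1, were not low in this list. Mcm6, the most abundant of the list, rose by 2.04 (SE 0.11, adjusted P = 8.83e-06) and 2.03 (SE 0.13, adjusted P = 2.17e-05), and Mcm5 had the largest change at 2.17 and 2.26; both are subunits of the replicative helicase. Ccna2, the cyclin of S phase and G2, rose by 1.96 and 2.02. Of 10 G2/M and proliferation genes 9 were higher in both comparisons, with median log2 fold changes of 1.48 and 1.60, among them Bub1 (2.11 and 2.04), Aurka (1.92 and 2.10) and Top2a (1.31 and 1.19); Mki67 did not pass both thresholds (0.96 and 0.27). Astrocytes also had counts of these genes, with 62.9 to 91.9 CPM of Ccnb1.

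Genes for making and handling histone mRNA were in part higher. Of 15 genes of histone gene transcription and 3′ processing or decay, 5 were higher in mKate2- cells, 3 in mKate2+ cells and 0 lower (of all genes tested, 11.5% and 12.2% were higher), with medians of 0.69 and 0.67 on the log2 scale. Slbp had 38.8, 39.5 and 37.5 CPM in astrocytes, 82.1, 72.7 and 92.2 in mKate2- cells and 80.1, 61.8 and 90.1 in mKate2+ cells. It rose by 1.11 (SE 0.12, adjusted P = 0.000139) and 1.07 (SE 0.14, adjusted P = 0.000545). Casp8ap2, a histone locus body protein, rose by 1.14 in mKate2- cells and had 0.84 in mKate2+ cells, under the threshold of 1. Eri1, an exonuclease of histone mRNA decay, rose by 1.01 and 1.06, and Lsm11, a part of the U7 particle, by 1.03 and 1.06. Npat, the cyclin E/CDK2 substrate that activates the clusters, had -0.09 (adjusted P = 0.682) and -0.25 (adjusted P = 0.388). Sympk, the most abundant of the list, had -0.44 and -0.50. Of 20 histone chaperone and assembly genes 7 and 6 were higher and 0 lower (medians 0.67 and 0.72), led by Asf1b (1.88 and 2.02) and Chaf1b (1.52 and 1.71); Nap1l1, the most abundant, had 0.59 and 0.66.

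Of the 11 replacement histone genes, most of which give polyadenylated mRNAs only, 7 were not called in either comparison with astrocytes. In each comparison 3 of the 11 were higher and 1, H2afy2, was lower, with medians of -0.17 and 0.15. Of all genes tested, 11.5% and 12.2% were higher and 22.4% and 22.8% lower. H2afz, encoding H2A.Z and the most abundant, had 234, 261 and 194 CPM in astrocytes, 814, 629 and 702 in mKate2- cells and 718, 1047 and 777 in mKate2+ cells, and rose by 1.65 (SE 0.16, adjusted P = 8.74e-05) and 1.97 (SE 0.21, adjusted P = 0.000208). Cenpa, encoding the centromeric H3, rose by 1.72 and 1.87, and H2afx, encoding the H2A.X of DNA damage signalling and known to give both a stem-loop and a polyadenylated mRNA, by 1.05 and 1.36. H2afy2, encoding macroH2A2, had 39.5, 30.1 and 28.7 CPM in astrocytes and between 0.23 and 0.61 in the SB28 libraries. Its log2 fold change was -5.95 (SE 0.25, adjusted P = 5.26e-06) in mKate2- cells and -6.27 (SE 0.33, adjusted P = 1.01e-05) in mKate2+ cells. H2afy2 had passed the filter only through the astrocyte libraries, so these calls support no direction. H3f3a and H3f3b, encoding H3.3, passed the adjusted threshold without the fold threshold, at -0.50 and -0.65 in mKate2- cells and -0.50 and -0.51 in mKate2+ cells. Together the 11 genes summed to 1456 ± 86.3 CPM in astrocytes (SD, n = 3), 1833 ± 128 in mKate2- cells and 2079 ± 327 in mKate2+ cells.

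The identity of the sorted cells was checked against marker lists. Of 13 astrocyte markers 11 were tested and 8 were lower in SB28 cells in both comparisons, against 22.4% and 22.8% of all genes tested. Among the SB28 libraries alone only 8 of the 13 markers passed the filter. Some of the 11 therefore passed it only with the astrocyte libraries, where such markers are high, and calls of these support no direction. Slc1a3 had 173, 177 and 236 CPM in astrocytes, Aqp4 5.64, 6.82 and 59.7, and Gfap 8.83, 3.42 and 19.4, and in SB28 libraries none of these 3 exceeded 2.38 CPM; Gjb6 had 0 counts in all 9 libraries. The other 3 tested markers were not called: Gja1, encoding connexin 43, had log2 fold changes of 0.43 and 0.55 (adjusted P = 0.0156 and 0.00807, under the fold threshold), Clu 0.24 and 0.26, and Sox9 -0.91 and -0.95. The whole list summed to 1100, 1063 and 1764 CPM in astrocytes and to between 468 and 514 in SB28 libraries, where Gja1 was its most abundant gene with 241 to 284 CPM. The oligodendrocyte lineage list of 8 genes summed to 847, 444 and 508 CPM in astrocytes and to at most 27.0 in SB28 libraries; Olig1 was its most abundant gene and Sox10 did not exceed 0.0611 CPM. The fibroblast or meningeal list of 5, led by Col1a2, summed to 1410, 1492 and 1050 CPM in astrocytes and 538 to 810 in SB28 libraries. The microglia or macrophage list of 10 summed to 40.8, 29.1 and 31.5 CPM in astrocytes and 47.6 to 61.3 in SB28 libraries, nearly all of it Tmem119, with Cx3cr1 at or near 0. Of its 2 tested genes P2ry12, a microglial receptor, was called lower in the SB28 cells, with 1.06, 2.54 and 0.48 CPM in astrocytes and at most 0.06 in SB28 libraries (-6.50 and -5.39, adjusted P = 0.00143 and 0.00225). P2ry12 had passed the filter only through astrocyte libraries, so these calls support no direction. Tmem119 had 0.72 and 0.85, under the fold threshold. The neuron list summed to 25.4, 54.6 and 51.0 CPM in astrocytes and 19.9 to 26.8 in SB28 libraries. Of its 3 tested genes 1 was lower in each comparison and 1 was higher in mKate2+ cells. The endothelial list summed to 1.92, 1.99 and 7.09 CPM in astrocytes and 0.88 to 1.71 in SB28 libraries. The part of other cell types in the astrocyte values of Hist1h1c and Hist1h2bc was not tested.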

How the data were processed

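Libraries were sequenced by the authors' provider, reads were trimmed with Trimmomatic 0.36, mapped to GRCm38 with STAR 2.5.2b and counted with featureCounts of Subread 1.5.2. The deposited values are the authors' raw counts of uniquely assigned reads per gene, so reads of near-identical histone genes can be missing; strand, annotation release and poly(A) selection are not given in the sources used here. The design text gives the CellTrace Violet stain to the tumor cells and the methods to the astrocytes, and the medium also differs between them; libraries were taken by name.

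Gene names, exons and transcripts came from GENCODE M21 and starts from RefSeq. CPM used total counts. Each pair of groups was fitted with edgeR 4.0.16 (R 4.3.3; TMM, quasi-likelihood test, Benjamini-Hochberg over all genes tested, genes above 1 CPM in at least 2 libraries); DESeq2 1.42.0 was an alternative. The scripts were tested on simulated data. Class and list sums have no test. A window of 150 bases was called unique when no other annotated gene's transcript held it. P values rest on 3 libraries a group.

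The members and lists were chosen with earlier results of these data known. Named were every linker gene, in each core class the 2 with the highest mean CPM and the 2 largest and 1 smallest changes, members called against the majority, the 3 smallest P values per direction between SB28 groups, and in each list the most abundant gene and the 2 largest changes; any other gene was chosen after its values were seen.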

Additional observations from a re-analysis of the deposited data

How the results depend on the processing

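The 6 genes lower in mKate2- cells stayed called in every alternative except 1, and leaving out any library left 6. The exception was the filter of at least 10 counts in every library, where 4 of the 6 were called. Hist1h2be and Hist2h3c2 had fewer than 10 counts in some mKate2- and some mKate2+ libraries and were not tested under this filter. In mKate2+ cells the lower calls numbered 6 when any library was left out, 5 with that filter (4 of them among the 6), and 5 after removal of the gene length trend, which shifted the median of all genes from near 0 to 0.44 in mKate2- and 0.47 in mKate2+ cells. Members called higher were less stable. In mKate2- cells 0 became 2 with no filter on low counts and 1 without the length trend, and stayed 0 when libraries were left out. In mKate2+ cells 1 became 3 with no filter, 2 without the length trend and 0 with the replicate block, and ranged from 0 to 2 when libraries were left out. The replicate block gave 7 lower members in mKate2- and 6 in mKate2+ cells; the groups came from the same 3 co-cultures, but the sources do not say that a number marks a co-culture, and correlations of deviations of same-numbered libraries ran from -0.147 to 0.251. Of uncalled members, removal of the length trend turned Hist1h1e (0.027 in mKate2- and 0.26 in mKate2+ cells) and Hist1h1d (0.34 in mKate2- cells). Leaving out a library turned Hist1h1d in mKate2- cells (-0.82 to 0.34) and, in mKate2+ cells, Hist1h1b (-0.081 to 0.39), Hist1h1e (-1.23 to 0.29) and Hist1h4i (-0.26 to 0.15). Between SB28 groups 0 members passed the adjusted threshold in any fit, and 1 passed an unadjusted P below 0.05 with no filter and without mKate2- library 1 or 3 or mKate2+ library 1; leaving out a library turned Hist1h1b between -1.05 and 0.10 and Hist1h2bc between -0.48 and 0.11.

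Class sums depended on the leading gene, and the values that follow are log2 ratios to astrocytes in mKate2- and then mKate2+ cells. Without the most abundant member they were -0.21 and -0.50 for H1, 0.69 and 0.93 for H2A (turned), -1.42 and -1.47 for H2B, -0.68 and -0.73 for H3 (without Hist1h3c), -0.03 and 0.04 (turned) for H4, and -1.63 and -1.59 for all members. Without Hist2h3c2, the leading H3 gene in astrocytes, H3 gave 0.19 and 0.34 (both turned). As medians over members they were -0.028 and -0.56 for H1, 1.21 and 1.67 for H2A (turned), 0.14 (turned) and -0.43 for H2B, and 0.37 and 0.38 (both turned) for all members; for H4 the median gave 0.32 in mKate2- cells. The medians are of genes mostly under 1 CPM. Leaving out a library put the H3 sum in mKate2- cells between -1.13 and -0.13 and the H4 sum in mKate2+ cells between -0.28 and 0.21. TMM and RLE library sizes moved no sum by more than the spread. Leaving out each library for the comparison lists and for the bound of Hist3h2ba was chosen after seeing the data. It moved no list sum by more than the spread, but the RNAs without a poly(A) tail, ran from -0.60 to 0.22 (turned without mKate2- library 3 or astrocyte library 1) and from -1.38 (without mKate2+ library 3) to -0.25.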
